A study of Rattus norvegicus with 10 samples.

Results

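Expression of 34 genes for proteins that hepatocytes secrete into plasma was examined in whole livers of 10 cirrhotic rats. The genes came from a list of 40 names that covers complement, coagulation and major carrier proteins, and a gene was taken where the array held a probe set annotated with its symbol alone. The 34 measured genes are part of 14217 genes measured in the same way. C2, Cfb and Kng1 had only probe sets shared with other symbols, and F7, F11 and F13b had no listed probe set, so that these 6 names have no values here. All 10 animals were male Wistar rats with cirrhosis induced by inhaled CCl4, an agent that injures hepatocytes and leads to scarring. Of these, 5 received vehicle once a week, and the other 5 were treated with CVX-060, which inhibits Ang2 (angiopoietin 2, a ligand of the endothelial receptor Tie2). A weekly dose of 10 mg/kg, in 500 µl of saline, was injected into the tail vein over 4 weeks. Both groups therefore share the cirrhosis, and healthy liver was not analysed here, so that no value below says how far a level lies from that of a normal liver. From each rat, 150 ng of RNA was hybridized to its own Affymetrix GeneChip Rat Genome array, and the values are log2 signals per probe set.

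Hepatocytes make most of the complement and clotting proteins of blood plasma, together with albumin and other carriers. Complement is started by the C1 complex or by lectins that bind microbial sugars, passes through C3 and C5, and ends in a pore built from C5b to C9, while regulators such as factor I and C4b-binding protein limit it. Clotting runs through serine protease zymogens to thrombin, and is held back by antithrombin, heparin cofactor II and the protein C system. Failing synthesis of these proteins in advanced cirrhosis is the reason why plasma albumin and clotting time are used as readings of liver function. Plasma levels were not measured in these arrays, and the spread between rats described here is a spread of transcript signal.

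The promoters of some members are given first. C6 is shown as the member of widest spread between rats, and C8a and C8b, like C4bpa and C4bpb, because they are neighbouring genes for parts of the same protein and differed in spread. Alb, the gene of albumin, is shown as the brightest member, and its small spread was read at the top of the array scale. Each line gives the 250 bases before the RefSeq transcript start on build GRCr8, written in the direction of transcription, with matches to short motifs of liver transcription factors in capitals.
Alb, chr14:17906980-17907229, minus strand: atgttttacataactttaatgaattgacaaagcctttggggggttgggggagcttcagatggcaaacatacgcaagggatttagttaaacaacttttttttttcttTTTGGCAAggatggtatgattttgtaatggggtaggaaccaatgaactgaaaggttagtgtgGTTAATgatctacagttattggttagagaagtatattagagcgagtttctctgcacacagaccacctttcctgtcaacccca
C6, chr2:55573383-55573632, plus strand: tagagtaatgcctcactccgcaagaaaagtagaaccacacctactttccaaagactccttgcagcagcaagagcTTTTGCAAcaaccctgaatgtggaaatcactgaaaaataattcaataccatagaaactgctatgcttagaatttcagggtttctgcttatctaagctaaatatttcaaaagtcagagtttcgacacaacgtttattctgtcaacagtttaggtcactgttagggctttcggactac
C8a, chr5:124866632-124866881, minus strand: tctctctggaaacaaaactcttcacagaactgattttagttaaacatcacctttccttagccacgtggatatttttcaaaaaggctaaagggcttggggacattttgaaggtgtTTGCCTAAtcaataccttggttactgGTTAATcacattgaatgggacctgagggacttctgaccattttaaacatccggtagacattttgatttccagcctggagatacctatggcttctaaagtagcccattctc
C8b, chr5:124763864-124764113, plus strand: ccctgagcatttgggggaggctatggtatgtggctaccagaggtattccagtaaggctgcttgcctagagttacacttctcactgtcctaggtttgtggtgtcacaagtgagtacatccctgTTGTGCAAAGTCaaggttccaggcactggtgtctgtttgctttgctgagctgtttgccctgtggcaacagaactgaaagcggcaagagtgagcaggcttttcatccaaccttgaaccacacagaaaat
C4bpa, chr13:44663472-44663721, minus strand: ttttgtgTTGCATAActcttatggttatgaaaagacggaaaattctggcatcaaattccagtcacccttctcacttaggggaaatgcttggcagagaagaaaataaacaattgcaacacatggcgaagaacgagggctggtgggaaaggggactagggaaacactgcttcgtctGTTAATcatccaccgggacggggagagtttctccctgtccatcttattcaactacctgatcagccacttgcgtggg
C4bpb, chr13:44683782-44684031, minus strand: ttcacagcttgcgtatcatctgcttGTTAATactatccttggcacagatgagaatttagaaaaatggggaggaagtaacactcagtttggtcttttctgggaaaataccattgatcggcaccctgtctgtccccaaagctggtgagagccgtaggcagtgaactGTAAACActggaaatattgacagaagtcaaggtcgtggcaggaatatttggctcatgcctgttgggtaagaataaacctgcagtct
The motifs searched on both strands were GTTAAT (a half-site of HNF1), CAAAGTC (a core of HNF4), TTGCNNAA (C/EBP) and TGTTTAC (FOXA). In C8b the capitals join a C/EBP match that begins 128 bases before the start and an HNF4 match that begins 123 bases before it, and the 2 overlap. An entry was found for 26 of the 34 measured genes, and 17 of these 26 promoters (65.4%) held at least 1 of the motifs, against 20.7% of 27457 promoters of the same length. The HNF1 half-site was found in 8 of the 26 promoters (30.8%, against 6.46% of all) and the C/EBP motif in 11 (42.3%, against 9.20%). The HNF4 core was in 2 and the FOXA motif in 3, against 3.95% and 3.25% of all promoters. A match describes these letters only, and other transcripts of a gene may start inside the window.

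In some sex-patterned liver genes 2 animals stood apart at the end of the range, vehicle rat 2 and CVX-060 rat 5. The results on the members are given with and without them. Both were labelled male, yet Cyp2c11, a male-pattern P450 of rat liver, lay at 8.99 and 11.42 in them and at 12.69 to 13.93 in the others, and the female-pattern Cyp2c12 lay at 12.71 and 12.02 against 7.11 to 9.79. CVX-060 rat 4 had the 9.79 of Cyp2c12. The male-pattern Obp3 was graded over the rats, at 4.21 in vehicle rat 2 and 5.85 in CVX-060 rat 5. It lay at 7.16, 8.30 and 7.98 in CVX-060 rats 1, 2 and 4, and at 9.58 to 13.24 in the remaining rats. In vehicle rat 2 and CVX-060 rat 5, Y-linked Eif2s3y lay within the range of the other rats, at 9.07 and 9.21 against 8.99 to 9.36. Uty read 8.91, above all others, and 8.58 against 8.12 to 8.65. Col1a1, the gene of the main fibrillar collagen chain, was also highest in these rats, with 8.25 and 8.18. Array medians lay between 5.52 and 5.57. As a check of the tissue, all 9 measured genes of a list of 12 hepatocyte enzymes exceeded the background level in every rat, and 0 of 7 T and NK cell markers did. Background was the 95th percentile of 32 probe sets on each array for receptors of odours, pheromones and trace amines, 5.46 to 5.83. Precision is limited by the 10 arrays, and the labels say only that the rats are biological replicates. The paper states that, after quality checks, it kept 2 replicates of each treatment for its own work. Its methods do not name them, and all 10 arrays were used here.

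All 34 genes exceeded that background in all 10 rats, and 31 exceeded the 99th percentile of the same probe sets. Probe sets differ in brightness for the same amount of RNA, so that levels are given for each gene on its own and are not ranked between genes. The Alb probe set was the brightest of all on all 10 arrays, at 14.77 to 14.81, which is the top of the scale. Whether albumin transcripts differed above that limit was not tested. The probe sets of Ttr, Serpina1 and C3 were also among the 17 brightest on every array, and whether their signals were compressed was not tested. For 12 members the mean signal was 13 or more. At the other end lay the probe sets of Masp1 (5.67 to 6.43), Masp2 (6.78 to 7.71) and Apob (6.44 to 7.29), which the rule of highest variance had chosen over brighter ones.

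Over the 34 genes, the standard deviation (SD) between rats, pooled within groups, had a median of 0.169 on the log2 scale, from 0.017 for Alb to 0.655 for C6. The median over all genes was 0.180, and over the 7852 genes above background in every rat 0.214. Among the 12 bright members the median was 0.0717, against 0.132 over all 92 genes with a mean of 13 or more, and among the other 22 members 0.201. In 29 of the 34 genes the highest and the lowest of the 10 rats were less than 2-fold apart. The 5 with a wider range were Apoa1, Mbl2, C6, C8b and Klkb1. The mean deviation of a rat over all 34 genes ran from -0.13 in CVX-060 rat 5 to 0.13 in CVX-060 rat 3. The spread of the members by rat is shown in the plot of deviations.

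**Figure D1:**
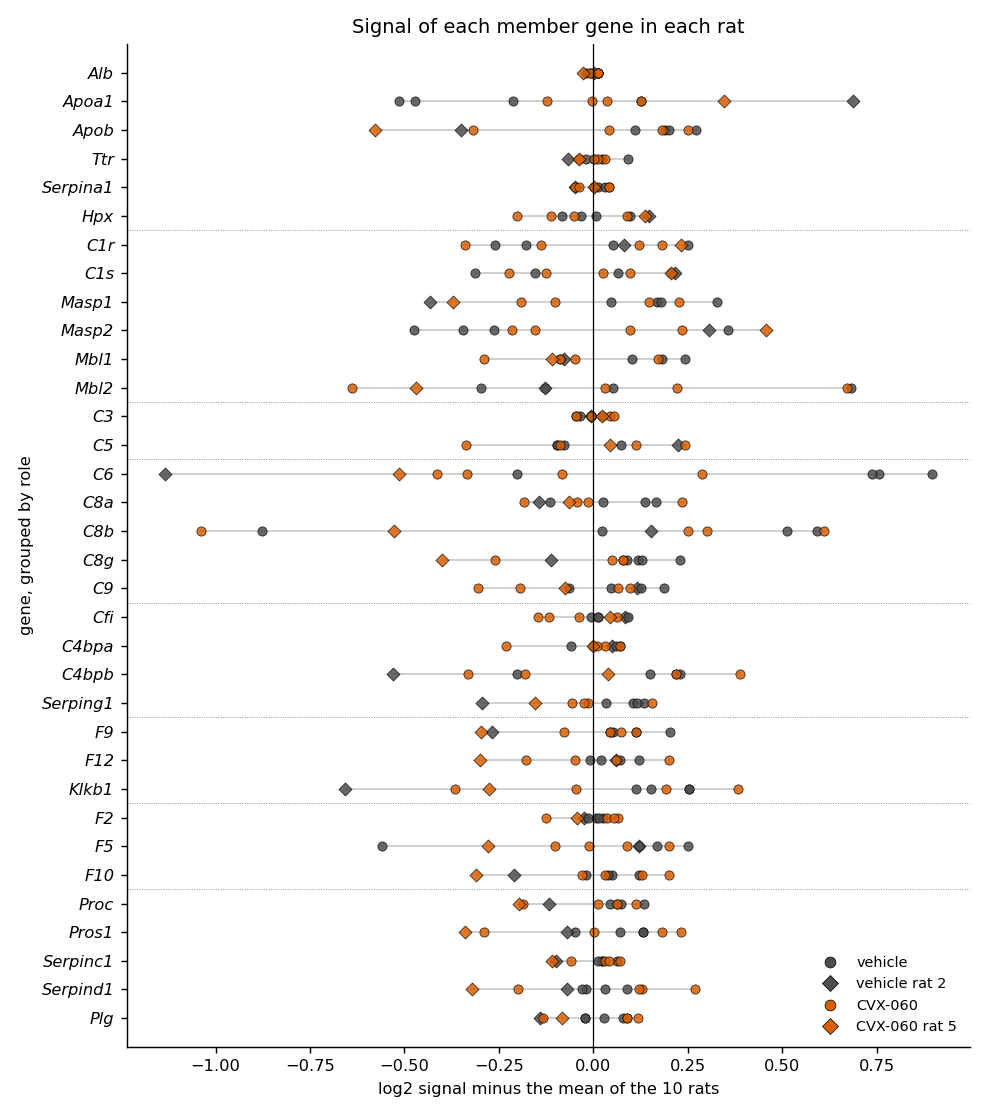
Each row is a gene and each point a rat, placed at its log2 signal minus the mean of the 10 rats, with vehicle rats in grey, CVX-060 rats in orange and the rats that stood apart as diamonds. Rows are grouped by role between dotted lines, C6 and C8b have the widest rows, and in most clotting genes below Serping1 the orange diamond lies to the left.

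The 11 clotting genes varied together from rat to rat. They are the zymogens and cofactors F9, F12, Klkb1, F2, F5 and F10, the inhibitors and anticoagulants Proc, Pros1, Serpinc1 and Serpind1, and Plg, the gene of plasminogen. All 55 pairs had a Pearson r above 0 over the 10 rats, with a median of 0.73. Without vehicle rat 2 and CVX-060 rat 5, 54 of the 55 were above 0, without CVX-060 rats 4 and 5, 46 were, and within the vehicle rats 43 were. Over pairs of the 17 complement genes the median was 0.29 with 91 of 136 above 0, over the 6 carriers it was -0.15, and over pairs of all genes above background it was 0.01. These correlations describe 10 livers that share 1 set of arrays, and pairs that share a gene are not independent.

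The common pattern of the clotting genes was a low signal in CVX-060 rats 4 and 5. Each of the 11 genes lay under its own mean in both of these rats, with a mean deviation of -0.16 in rat 4 and -0.23 in rat 5. In vehicle rat 2, 9 of the 11 lay under their mean, by -0.13 on average. The highest mean deviations were 0.14 in CVX-060 rat 3, 0.12 in CVX-060 rat 1 and 0.11 in vehicle rat 3. The lowest value was in CVX-060 rat 5 for 7 of the 11 genes, whereas among the 17 complement genes it was there for 1. In CVX-060 rat 4 the complement genes were low too, with 14 of 17 under their mean and a mean deviation of -0.14. CVX-060 rats 4 and 5 were named for their low clotting genes, so that the next comparison is not an independent one. Over 609 genes that are no members and had a mean signal between 11 and 14, the median deviation was -0.04 in CVX-060 rat 4 and -0.08 in rat 5. That of the clotting genes was -0.13 and -0.28. Among hepatocyte enzymes, Otc read 11.93 and 11.60 in these rats, 11.91 in vehicle rat 2 and 12.40 to 12.81 in the others. Tat read 12.22 and 12.20, within the range of the others. The median correlation of the clotting genes was 0.65 without vehicle rat 2 and CVX-060 rat 5, 0.60 without CVX-060 rats 4 and 5, and 0.64 after the arrays were quantile normalized again. CVX-060 rat 4 did not share the high Col1a1 of rat 5, and lay at 7.12. In whole tissue, fewer hepatocytes and less RNA per hepatocyte cannot be told apart.

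**Figure D2:**
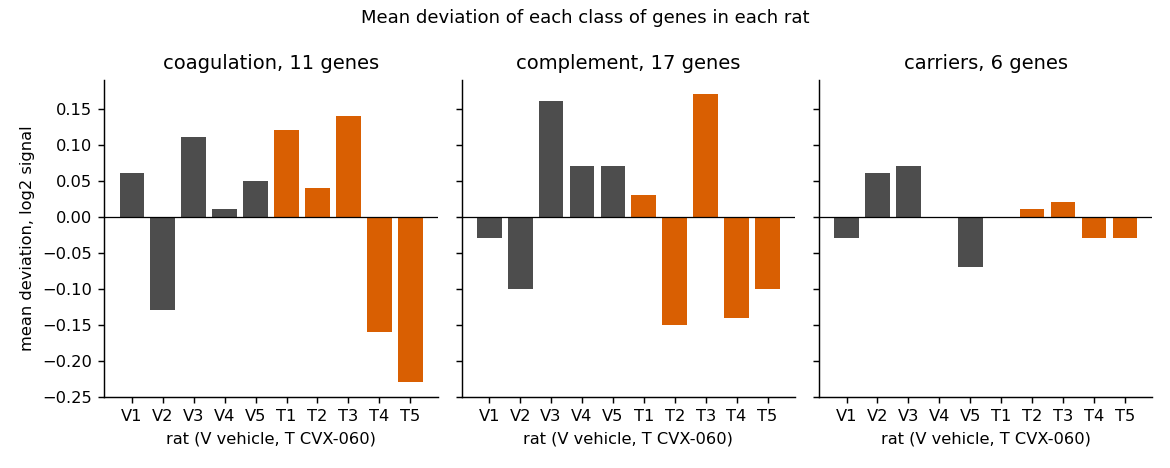
Bars give, for each rat, the mean over the genes of a class of the log2 signal minus the mean of the 10 rats, with vehicle rats (V) in grey and treated, CVX-060 rats (T) in orange. The 11 clotting genes were lowest in T5, T4 and V2, the 17 complement genes lay between -0.15 and 0.17, and the 6 carriers between -0.07 and 0.07.

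Of the carriers and the protease inhibitor among them, Alb, Ttr and Serpina1 varied little in signal between rats, and Apoa1 and Apob more. Alb, Ttr and Serpina1 were among the 17 brightest probe sets on every array. Whether the top of the scale or the common scaling of the arrays set their small spread was not tested. Alb read 14.79, 14.80, 14.78, 14.81 and 14.81 in vehicle rats 1 to 5, and 14.81, 14.81, 14.81, 14.79 and 14.77 in CVX-060 rats 1 to 5. Ttr, the gene of the thyroxine and retinol-binding protein carrier transthyretin, read 14.28, 14.21, 14.30, 14.37 and 14.26 with vehicle and 14.31, 14.29, 14.28, 14.24 and 14.24 with CVX-060. The groups overlapped in both genes, and the highest rat was 1.03-fold over the lowest for Alb and 1.12-fold for Ttr. Serpina1, the gene of alpha-1-antitrypsin, spanned 14.15 to 14.24, and Hpx, the gene of the haem scavenger hemopexin, 13.62 to 13.97. Apoa1, the main protein of high-density lipoprotein, read 12.61, 13.77, 13.21, 12.87 and 12.57 in the vehicle rats and 12.96, 13.08, 13.21, 13.12 and 13.43 in the CVX-060 rats. It was highest in the rats that stood apart, and its 2.29-fold range lay within the vehicle group. The Apob probe set used read 7.29, 6.67, 7.21, 7.22 and 7.13 with vehicle and 7.20, 7.27, 7.06, 6.70 and 6.44 with CVX-060, low in vehicle rat 2 and in CVX-060 rats 4 and 5. Apob encodes the structural protein of the lipoproteins that liver secretes. A brighter Apob probe set, with a mean of 13.90, ran from 13.77 to 14.03 and correlated with the first at r = 0.08, so that the low values are those of the dim one.

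Among the starters of complement, C1r and C1s, the proteases of the C1 complex, rose and fell together (r = 0.92, rho = 0.81 over 10 rats). C1s read 12.38, 12.91, 12.90, 12.76 and 12.54 with vehicle and 12.79, 12.57, 12.72, 12.47 and 12.90 with CVX-060. Both genes are also expressed by fibroblasts and macrophages. The mannose-binding lectins Mbl1 and Mbl2 were both lowest in CVX-060 rat 4 and correlated at r = 0.64 (rho = 0.68). Mbl1 read 11.11, 10.85, 11.03, 11.17 and 10.84 with vehicle and 10.84, 10.88, 11.10, 10.64 and 10.82 with CVX-060. Mbl2 read 11.71, 11.71, 12.52, 11.89 and 11.54 with vehicle and 12.06, 11.87, 12.51, 11.20 and 11.37 with CVX-060, a 2.50-fold range that crossed both groups. A second Mbl2 probe set gave the same order closely (r = 0.94). C3, the centre of the cascade, read 14.24, 14.27, 14.30, 14.27 and 14.23 with vehicle and 14.32, 14.27, 14.33, 14.23 and 14.30 with CVX-060, within 1.07-fold. C5, whose fragment starts the pore, read 11.45, 11.77, 11.62, 11.45 and 11.47 with vehicle and 11.66, 11.21, 11.79, 11.46 and 11.59 with CVX-060. It was lowest in CVX-060 rat 2, and the groups overlapped in both genes.

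The terminal pathway held the widest spread of all members. C6 read 9.19, 8.26, 10.15, 10.13 and 10.29 in the vehicle rats and 8.98, 9.68, 9.31, 9.06 and 8.88 in the CVX-060 rats. Vehicle rats 3, 4 and 5 were above every other rat and vehicle rat 2 below, a range of 4.08-fold. The same 3 vehicle rats had a low clock gene Bmal1 (4.87 to 5.13), as had CVX-060 rats 4 and 5 (5.75 and 5.21), in which C6 was not high. C8b read 11.68, 11.81, 10.78, 12.17 and 12.25 with vehicle and 12.27, 10.62, 11.91, 11.96 and 11.13 with CVX-060. It was low in vehicle rat 3 and CVX-060 rats 2 and 5, and its 3.13-fold range was not shared by its partners. C8a and C8g, which encode the other chains of C8, ranged over 1.34-fold and 1.54-fold, and C8b correlated with C8a at r = -0.14 (rho = -0.12) and with C8g at r = 0.20 (rho = 0.21). C8a read 12.52, 12.21, 12.49, 12.24 and 12.38 with vehicle and 12.34, 12.31, 12.59, 12.17 and 12.29 with CVX-060, with overlapping groups. The promoters of C8a and C8b printed above lie on the same chromosome and opposite strands. C9, which polymerizes into the pore, read 13.28, 13.35, 13.42, 13.36 and 13.17 with vehicle and 13.30, 12.93, 13.33, 13.04 and 13.16 with CVX-060, lowest in CVX-060 rats 2 and 4.

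Of the complement regulators, Cfi (factor I) and C4bpa (the alpha chain of C4b-binding protein) stayed within 1.19-fold and 1.24-fold. Cfi read 13.35, 13.44, 13.45, 13.37 and 13.37 with vehicle and 13.32, 13.21, 13.42, 13.24 and 13.40 with CVX-060, and both genes were lowest in CVX-060 rat 2. C4bpb, whose product is the beta chain that carries protein S, ranged over 1.90-fold, from 11.69 in vehicle rat 2 to 12.61 in CVX-060 rat 4, and correlated with C4bpa at r = 0.42 (rho = 0.45). Serping1, the C1 inhibitor, read 12.96, 12.56, 12.99, 12.89 and 12.97 with vehicle and 12.84, 12.80, 13.01, 12.83 and 12.70 with CVX-060, and was low in both rats that stood apart.

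In the contact and intrinsic group, Klkb1, the gene of plasma prekallikrein, read 12.38, 11.47, 12.38, 12.28 and 12.24 with vehicle and 12.32, 12.08, 12.51, 11.76 and 11.85 with CVX-060. Vehicle rat 2 was lowest and CVX-060 rats 4 and 5 followed. F9, the gene of the factor missing in haemophilia B, read 13.05, 12.73, 13.11, 13.04 and 13.20 with vehicle and 13.04, 13.07, 13.11, 12.92 and 12.70 with CVX-060. F9 was low in both rats that stood apart. F12, the starter of contact activation, read 12.61, 12.68, 12.69, 12.74 and 12.64 with vehicle and 12.82, 12.68, 12.57, 12.44 and 12.32 with CVX-060, lowest in CVX-060 rat 5 but not low in vehicle rat 2. F2, the gene of prothrombin, stayed within 1.14-fold, at 13.44 to 13.63. F5, the cofactor of factor Xa, read 11.31, 11.26, 11.39, 10.58 and 11.26 with vehicle and 11.23, 11.13, 11.34, 11.04 and 10.86 with CVX-060, lowest in vehicle rat 4. F10, the zymogen of factor Xa, read 12.08, 11.75, 12.01, 11.94 and 12 with vehicle and 12.09, 11.99, 12.16, 11.93 and 11.65 with CVX-060. It was lowest in the rats that stood apart and correlated with F9 at r = 0.86 (rho = 0.68).

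The anticoagulants followed the same rats. Proc, the gene of protein C, read 12.50, 12.34, 12.59, 12.52 and 12.53 with vehicle and 12.57, 12.52, 12.47, 12.27 and 12.26 with CVX-060, and was lowest in CVX-060 rats 5 and 4. Pros1, its cofactor protein S, correlated with Proc at r = 0.89 (rho = 0.76) and ran from 11.03 to 11.60. Serpinc1, the gene of antithrombin, read 13.78, 13.62, 13.74, 13.74 and 13.73 with vehicle and 13.75, 13.76, 13.79, 13.66 and 13.61 with CVX-060, lowest in both rats that stood apart. Serpind1, the gene of heparin cofactor II, spanned 12.35 to 12.94, and Plg 13.41 to 13.67.

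CVX-060 was then set against vehicle, to ask whether inhibition of Ang2 in cirrhotic rats went with a change in these genes. No member passed the test. With limma over all genes, 0 of the 34 members had an adjusted p under 0.05, as had 0 of 14217 genes (0%), and 0 members had an unadjusted p under 0.05, against 347 of all genes (2.44%). The groups overlapped in every member, whereas they did not in 69 of all genes (0.485%). By sign, 26 of 34 members were lower with CVX-060 (76.5%, against 47.4% of all genes), with a median difference of -0.04 against 0.01 over all genes. Members that vary together are not independent readings of sign. After the arrays were quantile normalized again, 21 were lower, with a median of -0.02 against 0.001 over all genes. Without vehicle rat 4, or without CVX-060 rat 2, 22 were lower. The count was 19 without vehicle rat 3, without CVX-060 rat 4 or without CVX-060 rat 5, the last of which are the rats in which the clotting genes were low together. Without vehicle rat 2 and CVX-060 rat 5, 25 were lower and the median was again -0.04. With each rat left out in turn, the median difference ran from -0.079 without CVX-060 rat 3 to -0.008 without CVX-060 rat 5 and -0.005 without vehicle rat 3.

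Markers of sinusoidal endothelium and of macrophages had positive differences with CVX-060, of which 0 passed the adjusted threshold, and their part in the differences of the members was not tested. All 6 measured of 7 sinusoidal endothelium markers were higher, with a median of 0.34. Lyve1, a hyaluronan receptor of these cells, had the smallest p (difference 0.44, unadjusted p = 0.0162, adjusted p = 1.0, limma). The mean of that list ran from 8.21 to 8.85 in the vehicle rats and from 8.66 to 9.15 with CVX-060. All 5 measured of 8 macrophage and Kupffer cell markers were higher, with a median of 0.24, and their mean ran from 8.26 to 8.78 and from 8.21 to 9.15. Without vehicle rat 2 and CVX-060 rat 5 the medians of these lists were 0.43 and 0.21.

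The intervals bound how large a difference of array signal could have been missed. For members near the top of the scale they do not bound the difference of the transcript. In 29 of 34 members the 95% interval of the difference lay within 1.5-fold either way, and those of Apoa1, Masp2, Mbl2, C6 and C8b reached further. Among the probe sets used, that of C9 had the smallest p. Its means were 13.31 ± 0.10 in the vehicle rats and 13.15 ± 0.17 in the CVX-060 rats (SD, n = 5 each). The difference was -0.16, with an exact two-sided permutation p of 0.103 and an adjusted p of 1.0 in limma. All 5 terminal pathway genes were lower with CVX-060, from -0.03 for C8a to -0.42 for C6. C6 had means of 9.60 ± 0.87 and 9.18 ± 0.32 (SD, n = 5 each), a 95% interval of the difference from -1.23 to 0.39 and an exact permutation p of 0.341. Its difference was -0.68 without vehicle rat 2 and CVX-060 rat 5, with an unadjusted limma p of 0.0254 and an adjusted p of 1.0, and -0.23 with Bmal1 as a covariate. C8g differed by -0.18 and Mbl1 by -0.14, with exact permutation p of 0.159 and 0.206.

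Smallest p within the other roles did not come nearer to the threshold. Apob differed by -0.17 on the dim probe set and by 0.03 on the bright one. C3 differed by 0.03, Cfi by -0.08, F12 by -0.10, F5 by -0.04 and Proc by -0.08, and the 95% intervals of C3 (-0.09 to 0.15) and Proc (-0.26 to 0.11) were narrow. Ttr differed by -0.01 (-0.14 to 0.11). Alb differed by less than 0.01, with the limit of the scale named above. For C3 and Ttr, also among the brightest probe sets, a narrow interval is one of signal and does not exclude a change of transcript.

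**Figure D3:**
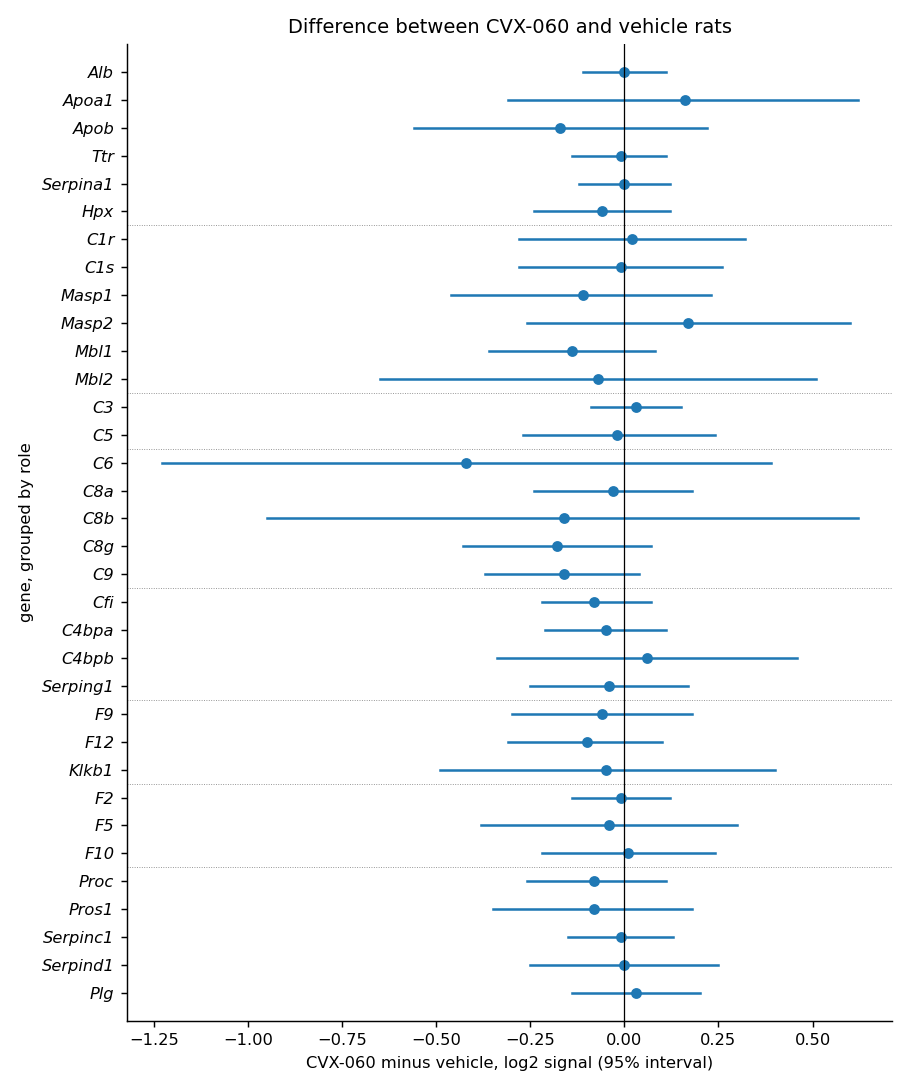
Points give how far the mean log2 signal of the CVX-060 rats lay from that of the vehicle rats, and bars the 95% interval from limma, with 5 rats in each group and genes grouped by role. Every bar crosses 0, and those of C6 and C8b are the longest.

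The relation to Col1a1, a reading of collagen production by the scar-forming cells, was fitted as a slope within the groups, in log2 units of a gene per log2 unit of Col1a1. Col1a1 read 6.29, 8.25, 7.46, 7.44 and 6.61 in the vehicle rats and 7.69, 7.36, 6.69, 7.12 and 8.18 in the CVX-060 rats. The groups overlapped, with a difference of 0.20 (exact permutation p = 0.675). Of the 34 members, 1 had an adjusted p under 0.05, against 744 of 14216 genes (5.23%). An unadjusted p under 0.05 was reached by 9 members (26.5%), against 23.2% of all genes. A negative slope was found in 24 members (70.6%), against 52.4% of all genes, with a median slope of -0.065 against -0.009. The share of members past either threshold was thus near that of all genes.

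Masp1, the gene of a lectin-pathway protease, was the member that passed. It read 6.27, 5.67, 6.28, 6.15 and 6.43 with vehicle and 5.91, 6.25, 6.33, 6.0 and 5.73 with CVX-060, lowest in the rats of highest Col1a1. Its slope was -0.33 ± 0.08 (SE), with an adjusted p of 0.0469 in limma. Pearson r was -0.84 (permutation p = 0.00275) and Spearman rho -0.78 (permutation p = 0.0104), and r was -0.83 without vehicle rats 1 and 2, the farthest from the median Col1a1. Without vehicle rat 2 and CVX-060 rat 5 the slope was -0.18 with an adjusted p of 0.841. This probe set lay close to background, but the other Masp1 probe sets had negative slopes too. The brightest, at 9.81 to 10.66, had a slope of -0.32 with all rats and of -0.33 without those rats. In limma with the brightest probe set for each gene, its adjusted p was 0.0333.

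Members with a positive slope were fewer. C1s had a slope of 0.25 ± 0.07 (SE, adjusted p = 0.0641 in limma), with r = 0.81 (permutation p = 0.00467) and rho = 0.93 (permutation p = 0.00029). Without vehicle rat 2 and CVX-060 rat 5, C1s alone of the members passed an unadjusted limma p of 0.05, a share of 7.21% among all genes. Its slope there was 0.27, with an unadjusted limma p of 0.0444 and an adjusted p of 0.682. Its partner C1r had a slope of 0.19 ± 0.10 (adjusted p = 0.274, limma), and 0.23 in the 8 rats. Apoa1 had a slope of 0.43 ± 0.12 (adjusted p = 0.0704, limma), which was 0.20 in the 8 rats. Within the vehicle rats Apoa1 was higher with more Col1a1, and the slope in the CVX-060 rats was smaller by 0.49 with an unadjusted p of 0.0394 and an adjusted p of 1.0 in limma. Masp2 had a slope of 0.34 ± 0.12 on the dim probe set, and -0.01 and -0.14 on a pair of brighter ones, so that its direction depends on the probe set.

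Of the clotting genes, 10 of 11 had a negative slope, with a median of -0.073. F9 had -0.19 ± 0.07 (adjusted p = 0.137, limma), F10 -0.19 ± 0.06 (adjusted p = 0.124) and Klkb1 -0.33 ± 0.14 (adjusted p = 0.186). For F9, r was -0.75 (permutation p = 0.0134) and rho -0.67 (permutation p = 0.0390), and r was -0.30 in the 8 rats without vehicle rat 2 and CVX-060 rat 5. In those 8 rats the slopes of F9, F10 and Klkb1 were -0.03, -0.08 and -0.05, and 5 of the 11 clotting genes were negative, with a median of 0.022. Serpinc1 had a slope of -0.07 with all rats and -0.02 in the 8. F5 had -0.13 and -0.22. Apart from F5, each negative slope of a clotting gene was thus nearer to 0 or positive without the 2 rats of highest Col1a1.

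Among the complement genes Serping1 had a slope of -0.18 ± 0.06 (adjusted p = 0.112, limma) and C4bpb -0.30 ± 0.12 (adjusted p = 0.175). C4bpb kept its slope at -0.29 in the 8 rats, whereas Serping1 went to -0.07. C8a had -0.13, and -0.14 in the 8 rats, and C5 had 0.08, and -0.02 in the 8 rats. C6 turned from -0.42 to 0.31. Over the 34 members, 16 slopes were negative in the 8 rats (against 52.8% of all genes), 12 had changed sign, and the median was 0.005. Without these rats 0 members and 0 of all genes (0%) had an adjusted p under 0.05, and 1025 genes had an unadjusted p under 0.05. With all rats, the difference of the slope between the groups passed the threshold in 0 members and 0 genes (0%), and 1 member, Apoa1, had an unadjusted p under 0.05 against 2.07% of genes. In all, 34 relations to Col1a1 were computed, and adjusted p-values are over all genes.

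**Figure D4:**
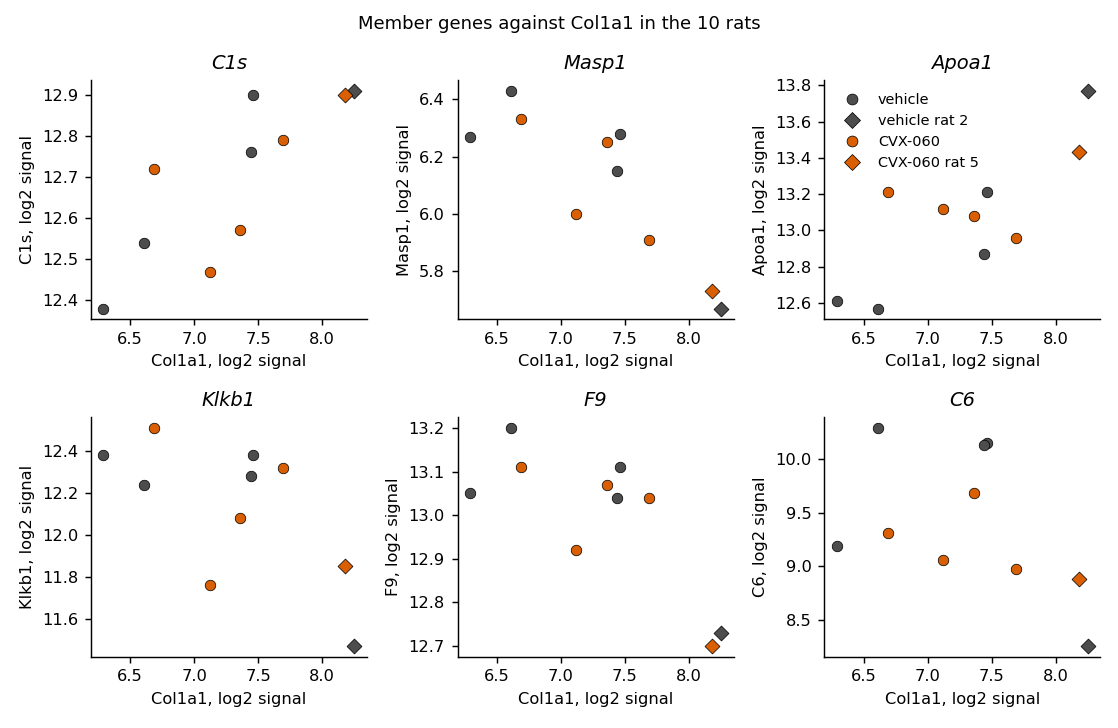
Each panel plots the log2 signal of a gene against that of Col1a1, with 1 point for each of the 10 rats, vehicle in grey, CVX-060 in orange and the rats that stood apart as diamonds. C1s rises and Masp1 falls across all rats, while the low values of F9 and C6 at high Col1a1 are largely those of the diamonds.

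**Figure D5:**
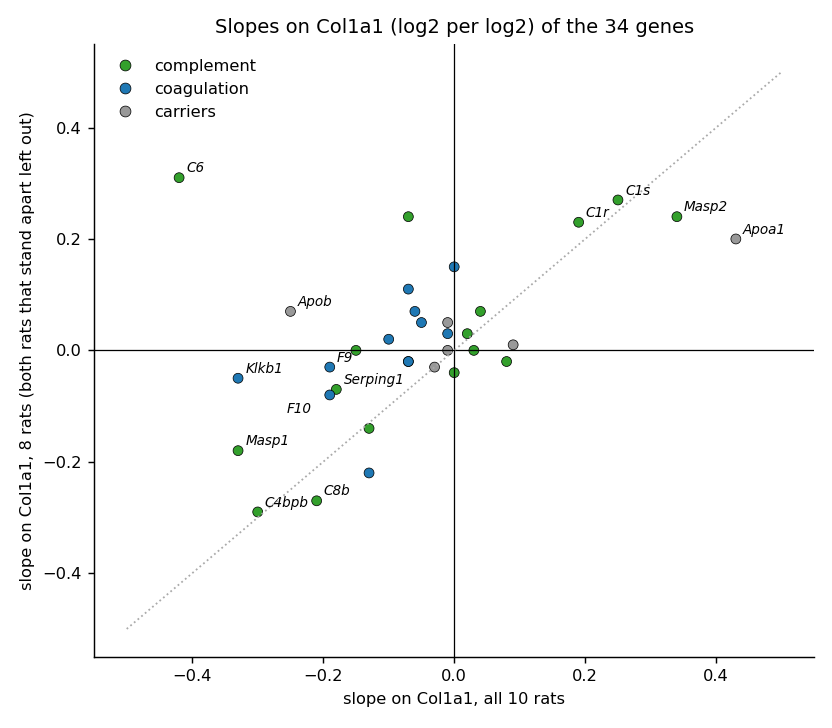
Each point is a gene, placed by its slope on Col1a1 with all 10 rats (horizontal) and in the 8 rats without vehicle rat 2 and CVX-060 rat 5 (vertical), with equal slopes on the dotted line. C1s, C4bpb and C8b lie near the line, Klkb1, F9 and F10 lie nearer to 0 on the vertical axis than on the horizontal one, and C6 has opposite signs.

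Markers of other cells moved with Col1a1 as well, and their part in the slopes was not tested. All 6 measured of 7 bile duct markers had positive slopes, but only 2 of the 6 exceeded background in every rat. The 3 that passed were Epcam, Cftr and Krt19. Epcam, above background throughout, had a slope of 1.35 (adjusted p = 0.0128 in limma), and 1.28 with 0.459 in the 8 rats. Cftr (4.35 to 5.57) was below background on every array. Krt19 exceeded background in only 2 vehicle animals and 3 treated ones. The mean of the list ran from 5.06 to 6.20 in the vehicle rats and from 5.18 to 6.15 with CVX-060, where background was 5.46 to 5.83. Of 10 stellate cell and myofibroblast markers, 9 had positive slopes and 5 passed, and their mean ran from 7.14 to 8.20 and from 7.37 to 8.19. Both lists kept these directions in the 8 rats, with 6 of 6 and 9 of 10 positive. Of 9 hepatocyte enzymes, 6 had negative slopes and 0 passed, and their mean was at least 12.69 in the vehicle rats and 12.53 with CVX-060.

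Further genes of the same systems were counted for comparison. Of 22 other complement genes, 14 were measured, and 0 passed for CVX-060 or for Col1a1. By sign, 4 of the 14 were lower with CVX-060 (28.6%, against 47.4% of all genes), with a median difference of 0.09. The smallest p were those of C1qc, a subunit of C1q made by macrophages (0.32 higher with CVX-060, unadjusted p = 0.0456, limma), and for Col1a1 of the lectin gene Colec11 (slope -0.28, adjusted p = 0.0907, limma, and -0.13 in the 8 rats). Of 27 other genes of coagulation and fibrinolysis, 25 were measured, and 8 of these were lower with CVX-060 (32.0%), with a median difference of 0.04. For CVX-060 0 passed, and for Col1a1 2 passed, both upward. These were Plat, the gene of tissue plasminogen activator (slope 1.28, adjusted p = 0.0353, limma), and Tfpi, an inhibitor of the tissue factor pathway (0.46, adjusted p = 0.0410). In the 8 rats their slopes were 0.60 and 0.19, with adjusted p of 0.638 and 0.782 in limma. Neither is a product mainly of hepatocytes. Hrg, the gene of histidine-rich glycoprotein, was 0.25 higher with CVX-060 (unadjusted p = 0.0157, adjusted p = 1.0, limma).

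Of 16 other secreted hepatocyte proteins, 15 were measured, 11 were lower with CVX-060 and 0 passed. For Col1a1, 10 had negative slopes and 1 passed, Fetub, the gene of fetuin-B (-0.43, adjusted p = 0.0243, limma). Fetub read 12.96 in vehicle rat 2 and 13.28 in CVX-060 rat 5, against 13.57 to 13.95 in the others, and its slope was -0.21 without them. Among 9 measured hepatocyte enzymes, 4 were lower with CVX-060, with a median of 0.01, and 0 passed. Of 13 measured transcription factors of hepatocytes, 11 were lower with CVX-060, with a median of -0.13, and 0 passed. Cebpa, the gene of C/EBP alpha, read 5.52 and 5.71 in the rats that stood apart and 6.02 to 6.85 in the others. These low values lay near background, which was 5.64 in vehicle rat 2 and 5.46 in CVX-060 rat 5. Its slope on Col1a1 was -0.46 (adjusted p = 0.135, limma), and 0.04 in the 8 rats.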

How the data were processed

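Liver RNA of 10 rats was read on 1 array per rat. The values that the authors deposited are log2 signals that had been put on a common scale over the arrays, and the submitters' processing notes list R 3.4.0, limma 3.38.2 and affy 1.56.0. Background correction and summary method are not given in the sources used here, and scanner files were not used here. Of 31099 probe sets, 20826 carried 1 gene symbol, and each of 14217 genes was taken from its probe set with the largest variance. Several were available for 5 members. Bright probe sets near the top of the scale compress differences, and dim ones near background do so too.

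CVX-060 was compared with vehicle, and each gene was regressed on Col1a1 with the group as a term, with limma 3.58.1 (lmFit, eBayes; R 4.3.3). All genes entered the Benjamini-Hochberg adjustment, with a threshold of 0.05. Differences were also tested by exact permutation over all 252 splits, whose smallest p is 0.00794, and correlations by 100000 permutations (Python 3.11.15, numpy 2.4.6, pandas 2.3.3, scipy 1.17.1, matplotlib 3.10.9). The steps were tested on simulated data. Promoters are those of RefSeq.

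The members and lists were chosen with earlier results of these data known. Named members are all those measured, with per-rat values for Alb, Ttr, Proc, the member of smallest p in each of 8 roles for either contrast, and the 3 of largest and 2 of smallest SD. C1s and Klkb1 were also given per rat, and Masp2, C4bpb and C8g described, after their values were seen. Of other lists, up to 2 genes per contrast were named. Alternatives were other probe sets, filters, scalings, weights, priors, a replicate block, covariates and left-out rats.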

Additional observations from a re-analysis of the deposited data

Results flagged for a closer look

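In 5 of the 70 groups of 5 rats examined, over 34 members and Col1a1, a rat lay far from the others by the gap to its nearest neighbour over the whole range of its group, where chance gives about 1 in 20 groups. Vehicle rat 2 was far below the other vehicle rats in Apob (6.67 against 7.13 to 7.29), Serping1 (12.56 against 12.89 to 12.99) and Klkb1 (11.47 against 12.24 to 12.38). F5 was low in vehicle rat 4 (10.58 against 11.26 to 11.39), and C4bpa in CVX-060 rat 2 (12.94 against 13.17 to 13.24). The fall of Apob was not seen on its brighter probe set.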

How the results depend on the processing

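Under every alternative run, 0 members passed for CVX-060 minus vehicle, and 0 for a difference of the Col1a1 slope between groups. The count of members past the threshold for the Col1a1 slope, 1 in the report, was 0 with a 40th percentile filter, with array medians set to 0, with array weights, with a trend and robust prior, with the mean of 3 collagens in place of Col1a1, and without vehicle rat 2 and CVX-060 rat 5, with or without the group term. It was 2 with quantile normalization again and 2 with no group term. When each rat was left out in turn it ran from 0 to 2. Masp1, with an adjusted p of 0.0469 in the report, ran up to 0.841. The second member was C1s with quantile normalization again (0.0350) and Apoa1 with no group term (0.0451). Without CVX-060 replicate 3, Apoa1 (0.0480) and C1s (0.0418) passed and Masp1 did not (0.114). The cause was not tested.

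The median slope of the members was -0.007 with quantile normalization again and -0.122 with array medians set to 0, which moved the median of all genes from -0.009 to -0.077. It was 0.005 without vehicle rat 2 and CVX-060 rat 5, and -0.006 without them and the group term, a setting chosen after seeing the data, as were the left-out rats and the scaling for the correlation of the clotting genes. Without vehicle replicate 2 only, 25 genes passed for the slope in place of 744.

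Same-numbered rats of the groups deviated together with correlations of -0.173 to 0.153, so that the numbers were not taken to pair them. With the replicate block, 0 members and 2 genes passed for the slope, 20 members were negative with a median of -0.027, and 26 were lower with CVX-060 as before.

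Some differences between CVX-060 and vehicle changed sign. That of Masp2 was 0.17 on the dim probe set used, and -0.10 and -0.28 on brighter ones. The last had an exact permutation p of 0.0873. That of Masp1 was -0.11 on the probe set used, and 0.07 and 0.17 on the others. That of Apob was 0.03 on the brighter probe set, and that of F5 was 0.04 with array weights and 0.05 without vehicle rat 2 and CVX-060 rat 5. With each rat left out in turn, that of Ttr ran from -0.03 to 0.01, of F5 from -0.19 to 0.02, of C8b from -0.40 to 0.08 and of Mbl2 from -0.25 to 0.09. The slope of C5 was -0.02 without both rats and -0.01 without them and the group term, that of Hpx -0.02 in the last setting, and that of Masp2 -0.01 on a brighter probe set. The signal of Alb at the top of the scale and of Masp1 near background limits what these probe sets can show.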
